A study of Rattus norvegicus with 9 samples.

Results

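Scgb1a1, Tff3, Cyp4b1 and Cyp2f4 are genes of secretory cells of the airway epithelium, and their RNA was measured in rat lung under spontaneous breathing or mechanical ventilation with 21% or 100% oxygen. They were taken as every probe set annotated to one of these 4 genes. This gave 4 probe sets, 1 for each gene, of 8740 that were not array controls, and 4 of the 4736 genes that had a probe set with a single symbol. The groups were mechanical ventilation with 100% oxygen, mechanical ventilation with 21% oxygen, spontaneous breathing with 100% oxygen and spontaneous breathing with 21% oxygen. Each group held 2 samples, with the letters a and b in their titles. The RNA of letter b in the first of these groups was put on 2 arrays; their mean was counted as 1 sample, so 9 arrays gave 8 samples. No strain, age, duration of ventilation or ventilator setting was given in the sources used here, and no label says whether a and b were different rats. The p-values therefore rest on the spread of a against b alone, and that spread could be technical.

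The airway lining of the rat lung is made of ciliated, basal, mucous and club cells, and club cells are the dome-shaped secretory cells of the small airways. Scgb1a1 encodes the club cell secretory protein, a small secreted protein abundant in airway lining fluid. Cyp4b1 and Cyp2f4 encode cytochrome P450 enzymes, haem proteins that oxidise lipids and inhaled chemicals, and club cells are a major site of such enzymes in rodent lung. Tff3 encodes a trefoil peptide that mucus-secreting epithelia release together with mucins. The RNA was from lung tissue, in which fewer secretory cells and less RNA per cell cannot be told apart.

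Levels are array intensities, not logged, and every array had a 2% trimmed mean between 800.5 and 801.1. Changes are differences of log2(intensity + 40), given ± SE, with the Benjamini-Hochberg adjusted p of limma's moderated test over 5244 probe sets, and a gene is called where that p was under 0.05. The 3′ to 5′ ratios of the GAPDH and beta-actin control probe sets lay between 0.954 and 1.29 on all arrays. That of hexokinase was uneven: 2.73 and 2.48 on the 2 arrays of mechanical 100% letter b and 0.988 on letter a, 0.977 and 0.948 in mechanical 21%, 1.17 and 0.671 in spontaneous 100%, and 1.60 and 1.71 in spontaneous 21%. Its part in the results was not tested. The brightest 1% of probe sets began at 7111 to 8352 on the mechanical 100% arrays, lower than the 9934 to 14547 of the rest. An empty line for a lot batch stood in the descriptions of both spontaneous 21% arrays, of mechanical 100% letter a and of 1 of the 2 arrays of mechanical 100% letter b, and in no other. A fit with this line as a block can read the line only within mechanical 100%, from 1 array without it against letter a and the other array of letter b. It enters the 2 arrays of letter b as separate observations, 9 where there are 8 samples, so its p-values are too small. The arrays without the line hold 1 of mechanical 100%, so a comparison within them sets 1 array against 2, with the spread taken from the other groups.

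**Figure D1:**
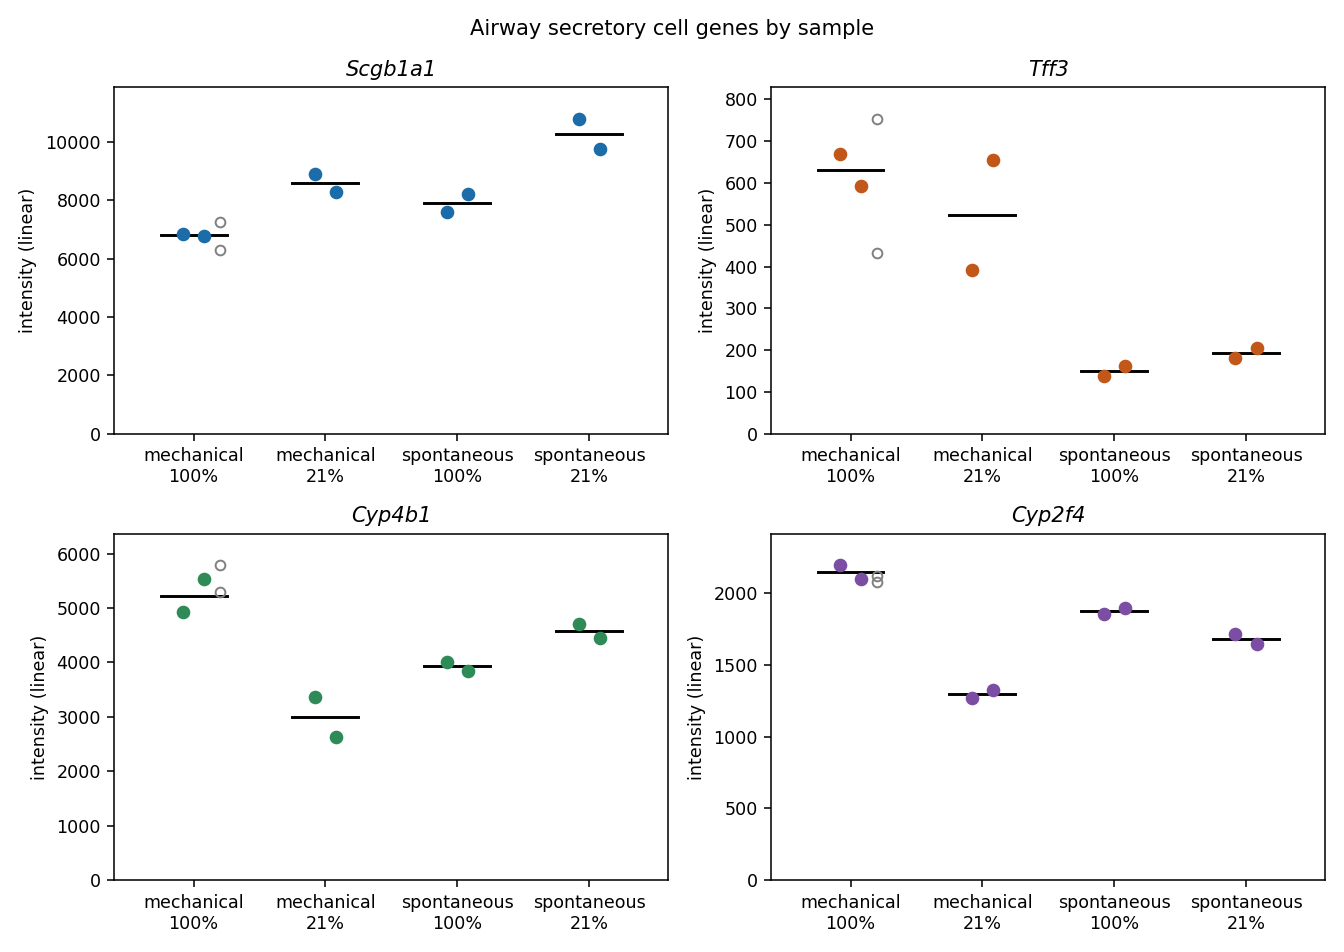
Intensity (linear scale, from 0) of each gene in the 4 groups; filled points are the samples a and b, bars are group means, and open points are the 2 arrays averaged for mechanical 100% letter b. Tff3 was at or above 392 in the mechanically ventilated samples and at or below 206 in the spontaneously breathing ones, and Cyp4b1 and Cyp2f4 were lowest in mechanical 21%.

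The 4 genes did not move as 1 group. Tff3 was higher with mechanical ventilation at both oxygen levels, Cyp4b1 and Cyp2f4 were higher with 100% than with 21% oxygen among ventilated lungs, and Scgb1a1 was the lowest with both ventilation and 100% oxygen by its deposited intensities. For mechanical over spontaneous breathing at 21% oxygen, 1 gene rose and 1 fell, where 14.5% of the tested probe sets were called, 7% higher and 7.49% lower. At 100% oxygen 1 rose and 0 fell, against 26.9% of probe sets called, 16.6% higher and 10.4% lower. For 100% over 21% oxygen in spontaneously breathing rats limma called 0 of the 4, against 16.8% of probe sets (7.06% higher, 9.71% lower); at an unadjusted p under 0.05 it was 1, and Scgb1a1 alone came close (log2 change -0.38, adjusted p = 0.055). In mechanically ventilated rats 2 rose and 1 fell with oxygen, against 35.1% of probe sets, 20.7% higher and 14.4% lower. Averaged over the other factor, 1 gene was called for ventilation, higher, against 9.1% of probe sets (4.84% higher, 4.25% lower). For oxygen 1 rose and 1 fell against 25% (12.8% higher, 12.2% lower). The interaction, which tests whether the ventilation change differed between the oxygen levels, was called for 2 genes, both higher, against 27.4% of probe sets, 16.9% higher and 10.5% lower. With 4 genes these counts say little of the set, and the results below are those of single genes.

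**Figure D2:**
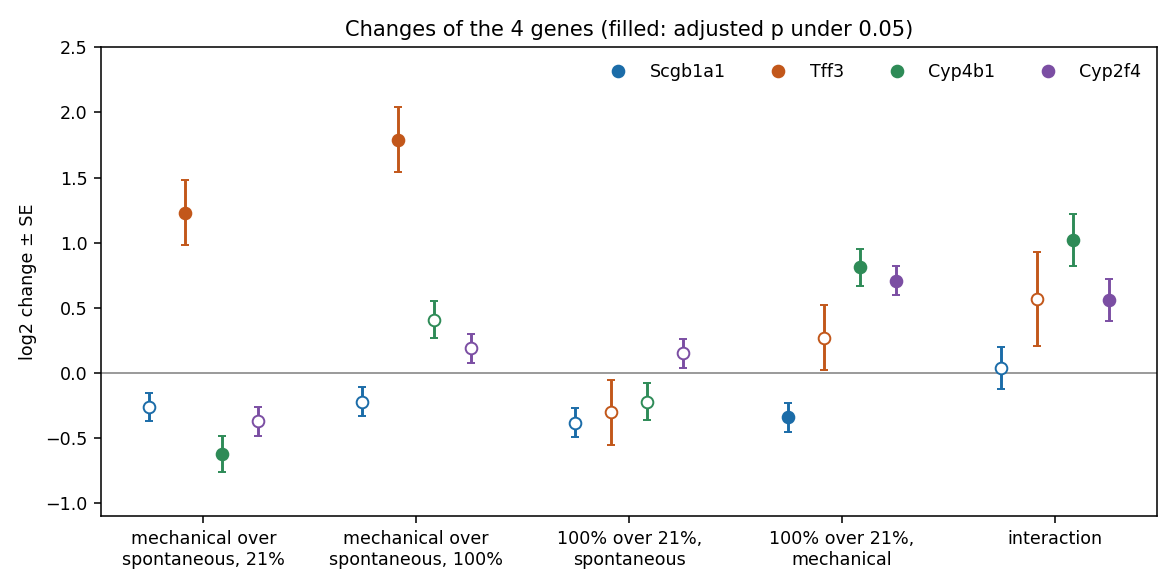
Log2 change ± SE of each gene in the 4 simple comparisons and in the interaction (ventilation change at 100% minus that at 21% oxygen); filled points have an adjusted p under 0.05. Tff3 stood at 1.23 and 1.79 for ventilation, and Cyp4b1 and Cyp2f4 at 0.81 and 0.71 for oxygen under ventilation.

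Scgb1a1 was read by the probe set rc_AI009524_at. The 250 bases before its annotated start, at chr1:215409687-215409936 on the minus strand of GRCr8 in the RefSeq table, are shown with the letters searched in capitals, because it is the defining gene of club cells.
Scgb1a1: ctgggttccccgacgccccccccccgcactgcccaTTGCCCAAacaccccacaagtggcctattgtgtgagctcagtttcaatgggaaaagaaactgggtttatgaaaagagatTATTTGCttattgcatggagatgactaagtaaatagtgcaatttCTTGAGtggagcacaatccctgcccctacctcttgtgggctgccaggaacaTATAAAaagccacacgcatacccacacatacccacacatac
The 5 motifs, chosen after the promoters had been read, were searched on both strands. TATAAA, the core of a TATA element, lay 41 bases before the start, and 12.9% of the windows of all 33469 promoters held it. The C/EBP-like motif TTGCNNAA lay 215 bases before the start and was held by 9.22% of windows. The FOXA-like motif TATTTGC lay 136 bases before it and was held by 2.66%. A core of the NKX2-1 motif, CTCAAG, was present as its reverse complement CTTGAG at 92 bases and was held by 13.3%. The aryl hydrocarbon receptor core GCGTG was present as its reverse complement at 29 bases, left in lower case here, and was held by 25.9%. None of the matches overlapped another. A match describes the letters only.

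Scgb1a1 was among the brightest probe sets of every array. It measured 6831 and 6763 in mechanical 100%, 8894 and 8294 in mechanical 21%, 7601 and 8207 in spontaneous 100%, and 10788 and 9769 in spontaneous 21%. The mechanical 100% samples were the lowest and the spontaneous 21% samples the highest, both without overlap with any other group, with mechanical 21% (8594 ± 425, SD, n = 2) just above spontaneous 100% (7904 ± 429) between them. Averaged over the way of breathing, Scgb1a1 fell with 100% oxygen (log2 change -0.36 ± 0.08, adjusted p = 0.016). The changes were -0.34 ± 0.11 (adjusted p = 0.048) in ventilated and -0.38 ± 0.11 (adjusted p = 0.055) in spontaneously breathing rats, and the interaction was 0.04 ± 0.16 (adjusted p = 0.87), with a 95% interval of -0.33 to 0.40. Ventilation gave -0.26 ± 0.11 at 21% (adjusted p = 0.17) and -0.22 ± 0.11 at 100% oxygen (adjusted p = 0.19).

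The direction of Scgb1a1 in mechanical 100% depended on how the arrays were scaled. Its rank among the 8740 probe sets other than controls, counted from the brightest, was 137, 190 and 169 on the 3 mechanical 100% arrays, 202 and 240 in mechanical 21%, 247 and 286 in spontaneous 100%, and 180 and 195 in spontaneous 21%. By rank the mechanical 100% arrays thus overlapped spontaneous 21% and stood above the other groups, although their intensities were the lowest. Quantile normalization, which gives every array the same distribution, turned the ventilation change at 100% oxygen to 0.32 (adjusted p = 0.035) and the oxygen change under ventilation to 0.18 (adjusted p = 0.13). It also brought the averaged oxygen change to -0.02 (adjusted p = 0.81), and cyclic loess brought it to -0.18 (adjusted p = 0.087). For ventilation at 100% oxygen cyclic loess gave 0.11 (adjusted p = 0.46) and median scaling -0.43 (adjusted p = 0.054). For oxygen under ventilation they gave -0.01 (adjusted p = 0.97) and -0.56 (adjusted p = 0.016). Without mechanical 100% letter a or mechanical 21% letter a the averaged change was -0.36 and -0.33, with adjusted p = 0.057 and 0.060. The call under ventilation alone (adjusted p = 0.048) was lost without any 1 of these samples: both mechanical 100%, both mechanical 21% and both spontaneous 21% samples, with adjusted p between 0.054 and 0.22. In spontaneous breathing the oxygen change kept its sign under all 3 other scalings, at -0.23 under quantile, -0.35 under cyclic loess (adjusted p = 0.039) and -0.33 under median scaling. The scalings also moved the whole array: the median change over all tested probe sets was 0.13 for ventilation at 100% oxygen and 0.14 for oxygen under ventilation as deposited, and -0.09 and -0.08 after median scaling.

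**Figure D3:**
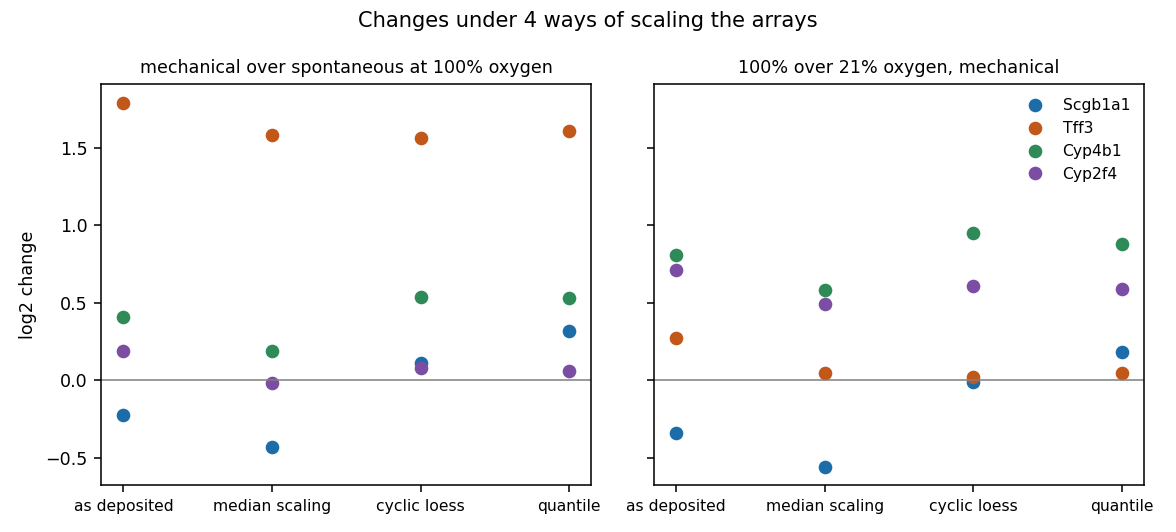
Log2 change of each gene with the values as deposited and after 3 other ways of scaling the arrays, for ventilation at 100% oxygen (left) and for oxygen under ventilation (right). Scgb1a1 moved from -0.22 to 0.32 on the left and from -0.34 to 0.18 on the right between the deposited and the quantile-normalized values, while Tff3 on the left and Cyp4b1 and Cyp2f4 on the right kept their sign.

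Tff3 was read by the probe set M80826_at. Its promoter, at chr20:9199334-9199583 on the minus strand of GRCr8, is shown for comparison with that of Scgb1a1, with TATAAA in capitals, 23 bases before the start, which was the 1 motif of the 5 that it held.
Tff3: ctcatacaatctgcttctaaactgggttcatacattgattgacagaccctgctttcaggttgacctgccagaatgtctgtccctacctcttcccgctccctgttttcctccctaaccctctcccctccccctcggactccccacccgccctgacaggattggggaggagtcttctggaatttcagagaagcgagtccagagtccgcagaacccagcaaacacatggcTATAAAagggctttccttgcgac
Tff3 measured 668 and 593 in mechanical 100% and 392 and 654 in mechanical 21%. The spontaneously breathing samples measured 138 and 162 with 100% oxygen and 182 and 206 with 21% oxygen. Every ventilated sample thus lay above every spontaneously breathing one. Averaged over oxygen the log2 change was 1.51 ± 0.18 (adjusted p = 0.0033).

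At 21% oxygen the change of Tff3 with ventilation was 1.23 ± 0.25 (adjusted p = 0.019). At 100% oxygen it was 1.79 ± 0.25 (adjusted p = 0.0034). Their difference of 0.57 ± 0.36 did not pass (adjusted p = 0.27) and had a 95% interval of -0.26 to 1.39. Oxygen gave -0.30 ± 0.25 in spontaneous breathing (adjusted p = 0.45) and 0.27 ± 0.25 under ventilation (adjusted p = 0.44). The lower groups lay near the floor of the array: the highest of 4 yeast control probe sets read between 192 and 203 on the spontaneously breathing arrays, against Tff3 levels of 138 to 206 there. Of these 4 samples 3 read below that control on their own array, so the spontaneous level is not shown to be above background and no fold is given. The call at 21% oxygen was lost without spontaneous 21% letter a or b or mechanical 21% letter b, with log2 changes of 1.15, 1.30 and 0.89 and adjusted p = 0.068, 0.056 and 0.11.

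The spread of Tff3 within a sample was wide. The 2 arrays of mechanical 100% letter b read 433 on the array without the lot line and 754 on the array with it, a log2 difference of -0.75. Of the tested probe sets 3.68% differed more between these arrays, and the SD of that difference over all of them was 0.36. On the arrays without the lot line alone, with 1 array of mechanical 100% against 2 of spontaneous 100%, the change with ventilation at 100% oxygen was 1.32 (adjusted p = 0.056). At 21% oxygen each kind of array held 1 of the 2 groups, so no value within a kind could be had. With the line as a block the change was 1.89 at 21% oxygen (adjusted p = 0.062).

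Other genes of mucus-secreting epithelium were read from a list, given here without Tff3. The related trefoil gene Tff1 was listed below 0 on all arrays. Of 18 such genes 10 were on the array and 5 were tested. With ventilation at 100% oxygen 3 rose and 0 fell, where 16.6% of all tested probe sets were called higher and 10.4% lower. The median log2 change of the 5 was 0.48 against 0.13 over all probe sets. At 21% oxygen 0 rose and 2 fell, with a median of -0.24 against -0.06. Of all tested probe sets 7% were called higher and 7.49% lower there. Muc1, a membrane mucin that alveolar cells also carry, changed by 1.01 ± 0.14 at 100% (adjusted p = 0.0032) and by -0.77 ± 0.14 at 21% oxygen (adjusted p = 0.012). Lcn2, an iron-binding defence protein, changed by 0.89 ± 0.12 at 100% (adjusted p = 0.0029) and by -0.46 ± 0.12 at 21% oxygen (adjusted p = 0.043). The interaction was called for both, at 1.78 ± 0.20 and 1.35 ± 0.17 (adjusted p = 8.1e-04 and 0.0015). Under 3 other scalings the calls of Muc1 and Lcn2 kept their direction, and Lcn2 at 21% oxygen lost its call after median scaling (adjusted p = 0.065). The other gene that rose at 100% oxygen was Aqp5, also listed for alveolar type 1 cells (0.48, adjusted p = 0.033). It was called under none of these scalings (0.27 to 0.28, adjusted p of 0.19 to 0.20).

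Tff3 is also a gut gene, so a list of gut and pancreas markers was read beside it. Its 12 genes on the array summed to 2693 to 2809 in mechanical 100%, 2812 to 2959 in mechanical 21%, 2745 to 2927 in spontaneous 100% and 2227 to 2836 in spontaneous 21%. The intestinal mucin Muc2 changed by 0.36 with ventilation at 100% oxygen (adjusted p = 0.16) and by 0.00 at 21% oxygen (adjusted p = 0.99). Reg3b, a secreted lectin of gut and pancreas, was the 1 gene of the list that rose with ventilation at 21% oxygen (0.94 ± 0.16, adjusted p = 0.0084), and at 100% oxygen its change was 0.06 (adjusted p = 0.81). The part of these genes in the Tff3 result was not tested.

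Cyp4b1 was read by the probe set M29853_at. The enzyme hydroxylates fatty acids and activates some lung toxicants. The promoters of Cyp4b1, at chr5:134393117-134393366 on the minus strand of GRCr8, and of Cyp2f4, at chr1:91543518-91543767 on the plus strand of GRCr8, are shown together because the levels of these 2 genes followed each other. Neither held any of the 5 motifs, so no letters are in capitals, which says only that these letters are not in these windows.
Cyp4b1: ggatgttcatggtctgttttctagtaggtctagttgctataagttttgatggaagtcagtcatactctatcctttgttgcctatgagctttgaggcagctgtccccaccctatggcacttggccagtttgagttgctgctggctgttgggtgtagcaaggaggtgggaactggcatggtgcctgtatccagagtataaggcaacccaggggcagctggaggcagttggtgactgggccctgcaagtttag
Cyp2f4: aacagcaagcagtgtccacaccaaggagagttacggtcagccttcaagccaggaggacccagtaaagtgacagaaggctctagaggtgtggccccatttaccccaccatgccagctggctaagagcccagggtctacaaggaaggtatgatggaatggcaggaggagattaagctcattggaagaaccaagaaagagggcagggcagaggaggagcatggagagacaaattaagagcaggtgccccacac
Cyp4b1 measured 4918 and 5540 in mechanical 100%, 3356 and 2625 in mechanical 21%, 4017 and 3841 in spontaneous 100%, and 4710 and 4448 in spontaneous 21%. No 2 groups overlapped, with mechanical 21% the lowest and mechanical 100% the highest. The means were 5229 ± 440.1, 2991 ± 517, 3929 ± 124 and 4579 ± 185 in the same order of groups (SD, n = 2).

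With 100% against 21% oxygen Cyp4b1 rose in ventilated rats (0.81 ± 0.14, adjusted p = 0.0043), a fold of 1.75. In spontaneously breathing rats the change was -0.22 ± 0.14 (adjusted p = 0.32). Ventilation lowered it at 21% oxygen (-0.62 ± 0.14, adjusted p = 0.025), and at 100% oxygen the change was 0.41 ± 0.14 (adjusted p = 0.066). The change at 100% oxygen was called after cyclic loess (0.54, adjusted p = 0.032) and quantile normalization (0.53, adjusted p = 0.029). Median scaling gave 0.19 (adjusted p = 0.37), so a rise at 100% oxygen depended on the scaling. The interaction of 1.02 ± 0.20 passed (adjusted p = 0.0077) and was called without any 1 of the samples. The lot line lies across these groups in the same way as the interaction. With the line as a block over 9 arrays the interaction was 1.35 (adjusted p = 0.074), and on the arrays without the line alone, 1 of mechanical 100% against 2 of mechanical 21%, the oxygen change was 0.95 (adjusted p = 0.021). The fall with ventilation at 21% oxygen was not called without spontaneous 21% letter a or b or mechanical 21% letter b, with changes of -0.58, -0.66 and -0.44 and adjusted p = 0.090, 0.072 and 0.14, nor with the block (-0.80, adjusted p = 0.12).

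Cyp2f4, read by the probe set AF017393_at, encodes an enzyme of rat airways that oxidises naphthalene and related compounds. It measured 2191 and 2097 in mechanical 100%, 1268 and 1322 in mechanical 21%, 1851 and 1893 in spontaneous 100%, and 1714 and 1645 in spontaneous 21%. The groups did not overlap, and the means of 2144 ± 66.7, 1295 ± 37.9, 1872 ± 30.0 and 1679.5 ± 48.9 (SD, n = 2) put mechanical 21% lowest, then spontaneous 21%, spontaneous 100% and mechanical 100%. With oxygen it rose in ventilated rats (0.71 ± 0.11, adjusted p = 0.0027), a fold of 1.64, and averaged over the way of breathing (0.43 ± 0.08, adjusted p = 0.0078). In spontaneously breathing rats alone the change was 0.15 ± 0.11 (adjusted p = 0.37).

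Ventilation gave Cyp2f4 a change of -0.37 ± 0.11 at 21% (adjusted p = 0.061) and of 0.19 ± 0.11 at 100% oxygen (adjusted p = 0.24). Median scaling gave -0.02 at 100% oxygen. The interaction was 0.56 ± 0.16 (adjusted p = 0.032). It was lost when any 1 of the 8 samples was left out (adjusted p between 0.052 and 0.091), after quantile normalization (0.47, adjusted p = 0.064), after median scaling (0.29, adjusted p = 0.20) and with the lot line as a block (0.46, adjusted p = 0.41). On the arrays without the lot line, 1 of mechanical 100% against 2 of mechanical 21%, the oxygen change was 0.66 (adjusted p = 0.028).

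Across the 8 samples the log2 levels of Cyp4b1 and Cyp2f4 gave a Pearson r of 0.82, while Scgb1a1 gave -0.22 with Cyp4b1 and -0.55 with Cyp2f4. Tff3 gave -0.52, -0.09 and -0.06 with Scgb1a1, Cyp4b1 and Cyp2f4. These values describe 4 groups of 2 samples that share arrays and scaling.

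Low Cyp4b1 and Cyp2f4 in mechanical 21% went with high levels of genes of tissues other than lung epithelium. The 12 T lymphocyte and thymus genes on the array summed to 32887 to 34747 in mechanical 21%, against 2201 to 2409 in mechanical 100%, 2438 to 2923 in spontaneous 100% and 2912 to 3357 in spontaneous 21%, and none was at or below 0 on all arrays. The 13 fat genes summed to 27961 to 29336 in mechanical 21% and to between 10522 and 13504 in the other groups, with Plin1 and Dio2 at or below 0 on all arrays. The 8 alveolar type 2 genes summed to 61652 to 66731 in mechanical 21%, below the 74868 to 89832 of spontaneous 21%. They summed to 40277 to 42674 in mechanical 100% and 52575 to 66445 in spontaneous 100%. The 5 alveolar type 1 genes summed to 20919 to 21871 in mechanical 21%, below the 25039 to 28430 of spontaneous 21%. They summed to 16259 to 18017 in mechanical 100% and 19719 to 22060 in spontaneous 100%. The 10 general epithelial genes were not low in mechanical 21%, at 32686 to 33128 against 28578 to 33112 in spontaneous 21%. They summed to 31590 to 32397 in mechanical 100% and 24005 to 25561 in spontaneous 100%. Squamous epithelium genes (Krt4 and Sprr1a the tested ones, Krt1 at or below 0 on all arrays) and skeletal muscle genes (Myog at or below 0) were highest in spontaneous 100%, at 10506 to 11062 over 6 genes and 26345 to 27318 over 14 genes, against at most 4524 and 8548 in the other groups. The part of any of these in the results was not tested.

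Other cytochrome P450 genes were read as a family, every gene whose symbol begins with Cyp and a digit. Of 49 such genes 22 passed the filter on low signal, Cyp4b1 and Cyp2f4 among them. With oxygen in ventilated rats 8 rose and 2 fell, and the median log2 change was 0.22 against 0.14 over all probe sets. Of all tested probe sets 20.7% were called higher and 14.4% lower. Cyp4b1 and Cyp2f4 were among the 8 that rose. After quantile normalization, cyclic loess and median scaling 5, 4 and 4 rose and 3 fell each time. In spontaneously breathing rats 1 rose and 5 fell with oxygen (median -0.02 against -0.05). The shares over all tested probe sets were 7.06% higher and 9.71% lower there. Ventilation at 21% oxygen gave 1 higher and 4 lower (median -0.31 against -0.06), and at 100% oxygen 3 higher and 2 lower (median 0.10 against 0.13). Over all tested probe sets the shares were 7% higher and 7.49% lower at 21%, and 16.6% higher and 10.4% lower at 100% oxygen.

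Cyp2b15, of the CYP2B subfamily of lung and liver enzymes, followed Cyp4b1. It averaged 3111 ± 19.7 in mechanical 100%, 1363 ± 143 in mechanical 21%, 1859.7 ± 57.5 in spontaneous 100% and 2450.4 ± 115 in spontaneous 21% (SD, n = 2). Its oxygen change under ventilation was 1.17 ± 0.12 (adjusted p = 4.7e-04) and its interaction 1.56 ± 0.17 (adjusted p = 7.4e-04). Its close relative Cyp2b2 had 2 probe sets that disagreed on ventilation at 100% oxygen, at -0.62 (adjusted p = 0.012) on the brighter and 0.61 on the other. Transcripts of such near-identical genes may share probes, so their values are uncertain. With ventilation at 21% oxygen the brighter probe set of Cyp2b2 fell (-0.86 ± 0.13, adjusted p = 0.0052), and the other had -1.29.

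Cyp2a3, an enzyme of rat nasal and lung epithelium, fell with ventilation at both oxygen levels. The log2 change was -0.69 ± 0.12 at 21% (adjusted p = 0.0092) and -0.71 ± 0.12 at 100% oxygen (adjusted p = 0.0060), and the interaction was -0.02 (adjusted p = 0.95). It measured 1211 and 1142 in mechanical 100% and 947 and 876 in mechanical 21%, against 1961 and 1929.8 in spontaneous 100% and 1452 and 1537 in spontaneous 21%, so all ventilated samples lay below all spontaneously breathing ones. Cyp1a1, the classic target of the aryl hydrocarbon receptor, went the other way with ventilation (0.80 ± 0.20, adjusted p = 0.038 at 21% and 1.29 ± 0.20, adjusted p = 0.0051 at 100%). It fell with oxygen under ventilation (-1.51 ± 0.20, adjusted p = 0.0016) and in spontaneous breathing (-2.01 ± 0.20, adjusted p = 8.1e-04). Cyp2e1, an ethanol-inducible enzyme, fell with oxygen in ventilated (-0.81 ± 0.12, adjusted p = 0.0019) and in spontaneously breathing rats (-0.98 ± 0.12, adjusted p = 0.0019). Cyp1a1, Cyp2a3 and Cyp2e1 kept these directions and calls under 3 other scalings.

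**Figure D4:**
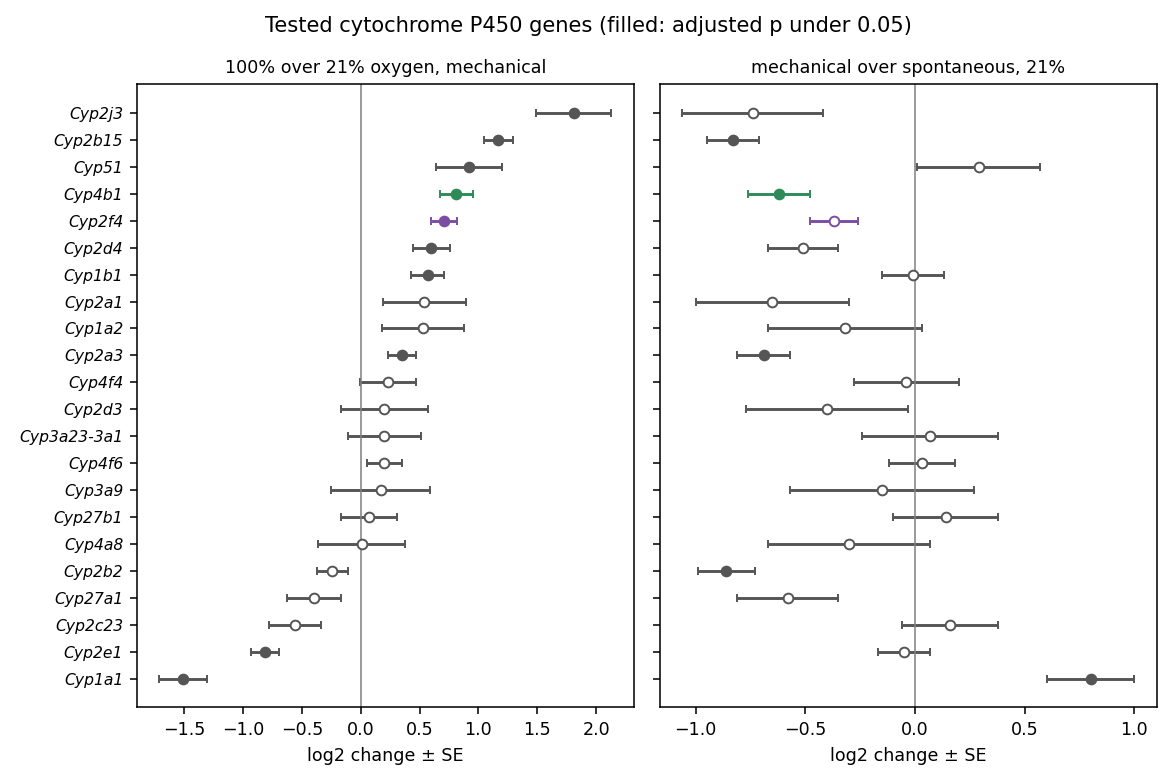
Log2 change ± SE of the 22 tested cytochrome P450 genes for oxygen under ventilation (left) and for ventilation at 21% oxygen (right); filled points have an adjusted p under 0.05, and Cyp4b1 and Cyp2f4 are coloured. Cyp4b1 and Cyp2f4 lie among the 8 genes that rose on the left, and Cyp4b1 among the 4 that fell on the right; the panels share the mechanical 21% samples.

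Of the club and secretory cell list 13 of 24 genes were on the array and all were tested, Scgb1a1, Cyp4b1 and Cyp2f4 included. Ventilation lowered 4 and raised 0 at 21% oxygen (median -0.26 against -0.06) and lowered 4 and raised 0 at 100% oxygen (median -0.10 against 0.13). Cyp4b1 was among the 4 lowered at 21% oxygen. Over all tested probe sets 7% were called higher and 7.49% lower at 21%, and 16.6% higher and 10.4% lower at 100% oxygen. Besides Cyp2a3, the brighter probe set of Cyp2b2 fell at 100% oxygen (-0.62 ± 0.13, adjusted p = 0.012), but had -0.24 (adjusted p = 0.067) after cyclic loess and -0.06 (adjusted p = 0.64) after quantile normalization. Aldh1a1, a retinaldehyde dehydrogenase, fell there too (-0.47 ± 0.13, adjusted p = 0.031), but had -0.12 after cyclic loess and 0.12 after quantile normalization. After quantile normalization 2 rose and 1 fell at 100% oxygen. Oxygen raised 1 and lowered 3 in spontaneously breathing rats (median -0.22 against -0.05), against 7.06% of all tested probe sets higher and 9.71% lower. In ventilated rats it raised 3 and lowered 1 (median -0.06 against 0.14), against 20.7% higher and 14.4% lower. Those 3 were Cyp4b1, Cyp2f4 and Cyp2a3, and the 1 lowered was Scgb1a1, so most of these calls repeat values given above. The call of Cyp2a3 (0.35, adjusted p = 0.049) was lost under the 3 other scalings (0.13 to 0.17, adjusted p of 0.30 to 0.40). Por, the reductase that supplies electrons to P450 enzymes, was among those that fell with oxygen in spontaneous breathing (-0.61 ± 0.13, adjusted p = 0.021), though not after median scaling (-0.56, adjusted p = 0.053). These are values of its brightest probe set, and its other tested probe sets had -0.26 and -0.24. With oxygen under ventilation the brightest had -0.19 and the others 1.08 and 0.80, so the probe sets of Por disagreed. The acute phase gene Hp rose with oxygen in spontaneous breathing (0.63 ± 0.15, adjusted p = 0.026) and changed by -0.18 under ventilation (adjusted p = 0.39).

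Markers of the other airway cell types gave little to compare. Of 20 ciliated cell genes 5 were on the array and 1, the ciliogenesis factor Foxj1, was tested, with changes of 0.31 (adjusted p = 0.56) and 0.04 (adjusted p = 0.94) for ventilation at 21% and 100% oxygen. Of 12 neuroendocrine genes 3 were tested, with medians of -0.29 and -0.04 in the same comparisons. Of 12 basal cell genes 6 were tested, with medians of -0.32 and -0.51. Among 10 general epithelial genes, 6 rose and 0 fell with ventilation at 100% oxygen, with a median of 0.73 against 0.13. Of all tested probe sets 16.6% were called higher and 10.4% lower there. Cldn7, a tight junction protein, changed by 1.35 ± 0.12 (adjusted p = 5.6e-04), and the keratins Krt19 and Krt8 by 0.98 ± 0.12 and 0.91 ± 0.11 (adjusted p = 0.0017 and 0.0018). At 21% oxygen 0 of these 10 rose and 1 fell, against 7% of all tested probe sets higher and 7.49% lower. Under 3 other scalings 5 or 6 rose at 100% oxygen. The summed level of these 10 genes was lowest in spontaneous 100%, the group that mechanical 100% is set against here. With oxygen in spontaneous breathing 0 rose and 5 fell (median -0.47 against -0.05). The shares over all tested probe sets were 7.06% higher and 9.71% lower.

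Regulators known to act on secretory cell genes were read from a list of 32, of which 25 were on the array and 14 were tested. With oxygen in ventilated rats 8 rose and 0 fell (median 0.93 against 0.14), also under the 3 other scalings. Of all tested probe sets 20.7% were called higher and 14.4% lower in this comparison. In spontaneously breathing rats 0 rose and 3 fell (median -0.21 against -0.05), against 7.06% of all tested probe sets higher and 9.71% lower. Ventilation at 21% oxygen lowered 3 and raised 0 (median -0.31 against -0.06), against 7.49% of all tested probe sets lower and 7% higher. At 100% oxygen it raised 8 and lowered 0 (median 0.73 against 0.13), or raised 4 or 5 after the other scalings. The shares there, as deposited, were 16.6% higher and 10.4% lower. Nkx2-1, the lung lineage factor that acts on Scgb1a1, measured 3271 and 3675 in mechanical 100%, 1608 and 1475 in mechanical 21%, 2458 and 2095 in spontaneous 100%, and 2910 and 3388 in spontaneous 21%. It fell with ventilation at 21% oxygen (-1.01 ± 0.14, adjusted p = 0.0041) and was higher with ventilation at 100% oxygen (0.60 ± 0.14, adjusted p = 0.017, and 0.068 after median scaling) and with oxygen under ventilation (1.15 ± 0.14, adjusted p = 0.0010). Notch1, a receptor whose signalling sets secretory against ciliated fate, changed with ventilation by -1.31 ± 0.15 at 21% (adjusted p = 0.0021) and by 0.98 ± 0.15 at 100% oxygen (adjusted p = 0.0050). With oxygen it changed by -0.97 ± 0.15 in spontaneous breathing (adjusted p = 0.0063) and by 1.32 ± 0.15 under ventilation (adjusted p = 9e-04). The cytokine signalling factor Stat3 changed by -0.93 ± 0.21 with ventilation at 21% (adjusted p = 0.024), by 0.55 ± 0.21 at 100% oxygen (adjusted p = 0.084) and by 1.83 ± 0.21 with oxygen under ventilation (adjusted p = 7.7e-04). Its mean of 181 ± 29.7 in mechanical 21% (SD, n = 2) lay below the highest yeast controls there, at 199 and 187. The sizes of its changes against mechanical 21% are therefore rough. These are values of its brightest probe set, and the other tested one had -0.38, 0.39 and 0.76 in the same order. Comparisons of a gene share groups with each other.

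For each of the 4 genes the 4 genes with the most similar levels over the 8 samples were sought among 3177 others. For Scgb1a1 these were RT1-Da, an MHC class II chain, Sftpa1, a surfactant protein gene, Defb4, a beta-defensin, and Tst, a sulfurtransferase, with Pearson r between 0.962 and 0.967. Sftpa1 averaged 10237 ± 9.91 in mechanical 100%, 12952 ± 253 in mechanical 21%, 11821 ± 910.04 in spontaneous 100% and 15741 ± 2761 in spontaneous 21% (SD, n = 2). For Tff3 they were Phax, Tac1, Rgs19 and Slc11a2 (r between 0.934 and 0.962). Tac1, the precursor of the airway neuropeptide substance P, averaged 265 ± 14.8, 255 ± 18.4, 178 ± 1.35 and 198 ± 34.4 in the same order of groups. These levels are near the floor. The highest yeast control read 192.1 to 202.5 on the spontaneously breathing arrays and 302.4 on mechanical 100% letter a. For Cyp4b1 they were Cbfa2t2, Ylpm1, Cyp2b15 and Wdfy3 (r between 0.964 and 0.971). For Cyp2f4 they were Stat3, Sdc2, Pdia4 and Ube2b (r between 0.970 and 0.986). Pdia4, a disulfide isomerase of the endoplasmic reticulum, averaged 3695 ± 305 in mechanical 100% and 1352 ± 128 in mechanical 21%, against 2604 ± 68.6 and 2008 ± 127 in the spontaneous 100% and 21% groups. These r values were taken on the values as deposited, describe levels over 4 groups and carry no test. Like Scgb1a1, Sftpa1 depended on the scaling. Its ventilation change at 100% oxygen was -0.21 as deposited, -0.42 after median scaling, 0.25 after cyclic loess and 0.42 after quantile normalization.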

How the data were processed

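Total RNA of rat lung was measured on 9 arrays, per the labels. The deposited intensity values came from the authors already scaled, as their near-equal trimmed means show, and the scanner, software and labelling are not given in the sources used here. The 59 control probe sets were left out. Values below 0 were set to 0, log2(intensity + 40) was taken (5% of the trimmed mean), the 2 arrays of 1 sample were averaged, and the dimmest 40% by mean were set aside, which left 5244 for testing, all 4 members among them. Levels are means of intensities. Group means were estimated by limma (version 3.58.1, under R 4.3.3; eBayes with a trend, 4 residual degrees of freedom), with 7 contrasts and p-values adjusted over all tested probe sets. The number of arrays limits the precision. The fit was tested on simulated data. The array's annotation names 1 gene for 7006 probe sets, with symbols updated by gene number. Promoters are from RefSeq. All 4 members matched.

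Members, lists and named genes were chosen with earlier results of these data known. Each member was named with all values, and from each list up to 3 genes of smallest p in a comparison, the brightest P450 genes, and the 4 genes of highest r. The brightest probe set stood for a gene. Alternatives were other scalings, offsets of 1% and 10%, no filter or one of 60%, single arrays of the repeated sample, a block for the letter or for the lot line, a threshold of 0.10, no trend, fits of only the groups compared, and each sample left out. Median scaling and the arrays without the lot line were added after seeing the data.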

Additional observations from a re-analysis of the deposited data

Results flagged for a closer look

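The change with ventilation differed between the oxygen levels for Cyp4b1 and Cyp2f4, by the interaction term. For Cyp4b1 the difference was 1.02 on the log2 scale (limma adjusted p = 0.0077), from a change of 0.41 at 100% and -0.62 at 21% oxygen. For Cyp2f4 it was 0.56 (adjusted p = 0.032), from 0.19 at 100% and -0.37 at 21% oxygen. The lot line divides the groups as the interaction does, apart from 1 of the 2 arrays of the repeated sample, and with it as a block the adjusted p were 0.074 for Cyp4b1 and 0.41 for Cyp2f4, although that fit counts the 2 arrays of the repeated sample separately.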

How the results depend on the processing

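The 28 changes of the 4 genes were recomputed under up to 23 alternatives, and of 605 such values 544 kept their direction and side of the threshold, 46 lost the call, 13 gained one and 2 reversed, where an uncalled change was not judged by its sign. Both reversals were Scgb1a1 after quantile normalization, at 0.32 for ventilation at 100% oxygen and 0.18 for oxygen under ventilation. The oxygen changes of Cyp4b1 and Cyp2f4 under ventilation were called in all 23 alternatives, and that of Tff3 with ventilation averaged over oxygen in all 20 that tested it; a filter of 60% removed Tff3. These counts include the fit with the lot line as a block, which enters the 2 arrays of the repeated sample separately and so has p-values that are too small, and, for the oxygen changes, the arrays without the line, with 1 array of mechanical 100%. Causes of the other shifts were not tested.

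Of the 4 genes, ventilation at 21% oxygen called 1 with no filter, 1 with the 60% filter, 1 with no trend, 0 with the lot line as a block, 0 with only the groups compared, and 0 to 2 with 1 sample left out. At 100% oxygen it called 3 after quantile normalization, 2 after cyclic loess, 2 at a threshold of 0.10 and 0 on the arrays without the lot line. Oxygen in spontaneous breathing called 1 after cyclic loess and 1 at 0.10, and averaged over breathing 1 after quantile normalization and 1 to 2 with 1 sample left out. The interaction called 1 after cyclic loess, 1 with no trend, 1 after median scaling, 0 with the lot line as a block and 1 with any sample left out. Averaged ventilation called 0 with the 60% filter. That filter removed Tff3, here and at 21% oxygen, so Tff3 was not tested there and its calls were not lost to a test.

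Of all probe sets, ventilation at 21% oxygen called 760, but 490 with no filter, 106 with the lot line as a block, 1206 at 0.10 and 228 to 709 with 1 sample left out. At 100% oxygen it called 1413, but 796 with no filter, 477 with the lot line as a block, 474 without the lot-line arrays and 474 to 1423 with 1 sample left out. Oxygen in spontaneous breathing called 879, but 540 with no filter, 128 with the lot line as a block, 1357 at 0.10 and 370 to 796 with 1 sample left out. Under ventilation it called 1841, but 898 with the lot line as a block, 930 without the lot-line arrays and 956 to 1904 with 1 sample left out. The interaction called 1439, but 159 with the lot line as a block. Averaged ventilation called 477, but 247 with no filter, 258 with only the array of the repeated sample that has no lot line, 245 with no trend, 872 at 0.10 and 122 to 520 with 1 sample left out. Averaged oxygen called 1310, but 745 with no filter and 636 to 1131 with 1 sample left out.

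The letters a and b gave no pairing of samples across groups: the correlation of the a-minus-b differences between groups lay between -0.13 and 0.07. With the letter as a replicate block the interaction called 1 of the 4 genes, averaged ventilation called 308 probe sets, and Scgb1a1 with oxygen under ventilation was not called (-0.34, adjusted p = 0.073).

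With 2 samples a group and a spread shared over 4 groups, small changes were not detectable, and levels near the yeast controls, as for Tff3 in spontaneous breathing, leave the size of its change rough.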
